A study of Mus musculus with 16 samples.

Results

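Collagen crosslinking and hydroxylation enzymes were examined in the intervertebral discs of mice, as 10 genes picked by name from the 49315 genes measured: the lysyl oxidases Lox, Loxl1, Loxl2, Loxl3 and Loxl4, the prolyl 4-hydroxylase alpha subunits P4ha1, P4ha2 and P4ha3, and the lysyl hydroxylases Plod1 and Plod2. All 10 were found and all 10 passed the filter on low values. They were selected by symbol, with earlier results of these data known. RNA from 16 mice was sequenced, 4 tail discs being pooled per mouse. The groups were intact discs of wild-type mice (n = 3), injured discs of wild-type mice (n = 4), intact discs of Adam8EQ mutants (n = 4) and injured discs of Adam8EQ mutants (n = 5). The series names DBA as the wild-type strain, what EQ stands for is not stated, and no age, injury method or time after injury is given in the sources used here. Levels are in TPM, a transcript abundance unit corrected for gene length and library size.

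Fibrillar collagen is modified in 2 places. Inside the endoplasmic reticulum, prolyl 4-hydroxylases make the 4-hydroxyproline that keeps the collagen triple helix stable at body temperature; each enzyme pairs a catalytic alpha subunit with the protein disulfide isomerase P4hb. Lysyl hydroxylases modify lysines there too, Plod2 being known for the telopeptide lysines that shape the later crosslinks. Outside the cell, copper-dependent lysyl oxidases convert lysine and hydroxylysine to aldehydes, from which the crosslinks of collagen and elastin form, and these crosslinks give the annulus fibrosus and the cartilage-like disc matrix their tensile strength.

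Implied reads per library, recovered from the TPM values and exon lengths, ranged from 10194080 to 24817235 with a median of 13283759. Adam8, the gene mutated in the mutants, had a level of 1.51 TPM ± 0.235 (SD, n = 3) in intact wild-type discs, 32.6 ± 32.7 (SD, n = 4) in injured wild-type discs, 1.55 ± 0.948 (SD, n = 4) in intact mutant discs and 87.3 ± 101 (SD, n = 5) in injured mutant discs. A level of Adam8 RNA does not check the allele. Summed levels of 6 disc matrix markers were 3964 to 18560 TPM in the 16 libraries, so the labelled tissue was present in each. Injured wild-type mouse 3 and injured mutant mouse 2 stood apart: they had the lowest sums of disc matrix markers (5232 and 3964 TPM) and the highest sums of 6 macrophage markers (3362 and 6977 TPM, against 126 to 188 TPM in intact discs). The labels name separate mice, and each mouse is 1 replicate.

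In intact wild-type discs Plod2 had the highest mean level of the 10 genes, at 308 TPM ± 12.6 (SD, n = 3), followed by P4ha3 at 226 ± 19.2 and Lox at 222 ± 72.4. P4ha1 (164 ± 15.5), Loxl2 (136 ± 27.4) and Loxl3 (115 ± 18.5) came next, and P4ha2 (68.8 ± 15.3), Plod1 (67.6 ± 4.21) and Loxl4 (47.5 ± 14.9) were lower. Plod2 and P4ha3, Loxl3 and P4ha2, and Loxl4 and Loxl1 were the neighbours in that order whose ranges over the 3 mice did not overlap. Loxl1 was at 5.02 ± 0.475 TPM, below all the others in every intact library. In injured mutant discs the order of the means differed, although Loxl1 was again the lowest, at 27.8 TPM. Lox led at 606 TPM ± 179 (SD, n = 5), next to Plod2 at 575 ± 228, while P4ha3 had rank 9 of the 10 genes at 64.6 ± 43.1. By median, Plod2 (665 TPM) was above Lox (554 TPM) in injured mutants. Lox also led in injured wild-type discs, at 557 TPM ± 214 (SD, n = 4), before Plod2 at 422 ± 136. P4ha3 had rank 5 there, at 130 ± 25.6. The ranges of Lox and Plod2 over single mice overlapped in injured discs of both genotypes.

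**Figure D1:**
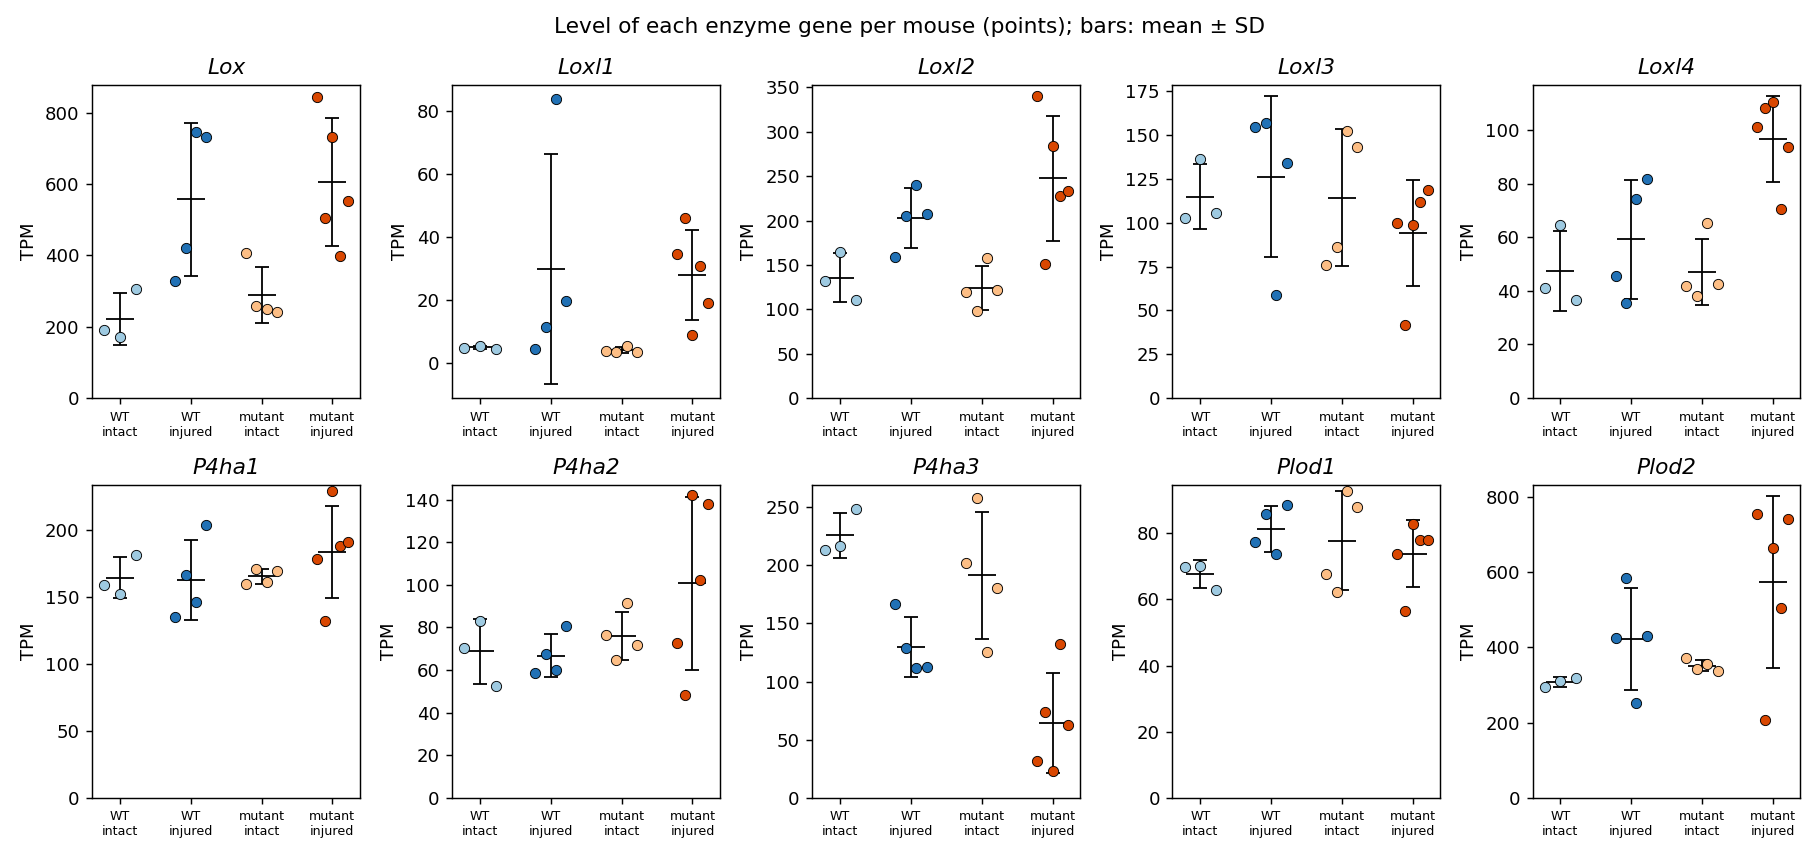
Level of each of the 10 genes in TPM for each mouse (points) in the 4 groups, with 1 panel per gene and bars for mean ± SD. Loxl1 is the lowest gene in intact discs, and P4ha3 in injured mutants spans 23.3 to 132 TPM, overlapping the intact mutant range at its upper end.

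Lysyl oxidase RNA was higher after injury in the mutants, and 4 of the 5 genes passed the test there (adjusted p under 0.05), as did 13.1% of all tested genes in that direction. Lox, the founding member of the family, which acts on collagen and elastin (chromosome 18), was at 406, 259, 250 and 241 TPM in the 4 intact mutants and at 844, 505, 731, 399 and 554 TPM in the 5 injured mutants. Injured mutant 4 was just below intact mutant 1, so the groups touched. Lox rose by 1.05 ± 0.31 (SE) on the log2 scale (limma on log2(TPM + 1), adjusted p = 0.0132). In wild-type discs it was at 190, 172 and 305 TPM in intact mice and at 329, 420, 746 and 734 TPM in injured mice. These groups did not overlap, yet the change of 1.28 ± 0.35 (SE) had an adjusted p of 0.123 in limma and did not pass. Without injured wild-type mouse 1 it was 1.51 with an adjusted p of 0.0391 in limma, a setting in which 1.87% of all tested genes passed. The injured wild-type mice with the higher Lox levels, 3 and 4, also had macrophage marker sums of 3362 and 2165 TPM and neutrophil marker sums of 185 and 138 TPM. Mice 1 and 2 had macrophage sums of 206 and 342 TPM and neutrophil sums of 3.18 and 3.53 TPM. Tendon and fibroblast marker sums were also higher in mice 3 and 4 (978 and 503 TPM) than in mice 1 and 2 (257 and 309 TPM). So were endothelial sums (173 and 57.5 against 6.22 and 12.25 TPM). The 6 tendon and fibroblast markers did not move together. With injury in wild-type mice 4 had positive changes, 0 passed in limma, and Tnmd and Mkx had changes of -0.30 and -0.63. In injured mutants 1 to 5 the macrophage sums were 1725, 6977, 1052, 2225 and 656 TPM. Lox was highest there in mutants 1 and 3 and lowest in mutants 2 and 4. The part of any of these cells in the Lox levels was not tested.

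Loxl1 (chromosome 9, 58287738 to 58313186, minus strand, GRCm38) is best known for elastic fibre maintenance. Its intact levels were 4.94, 5.53 and 4.59 TPM in wild-type mice and 3.80, 3.62, 5.47 and 3.57 TPM in mutants. After injury it was at 34.6, 45.9, 8.82, 30.7 and 19.2 TPM in mutants, all above every intact mutant. Loxl1 rose there by 2.33 ± 0.66 (SE) on the log2 scale (limma, adjusted p = 0.0101). In injured wild-type discs it was at 4.56, 11.5, 83.6 and 19.8 TPM, from an intact-like level in mouse 1 to the highest of all 16 libraries in mouse 3, and the change of 1.64 ± 0.75 (SE) did not pass in limma (adjusted p = 0.251). Without injured wild-type mouse 3 it was 0.91. The highest value in each genotype came from the library with the highest macrophage marker sum. These 2 libraries, wild-type mouse 3 and mutant 2, also had the highest neutrophil (185 and 1005 TPM) and endothelial (173 and 61.7 TPM) sums of their genotype. Wild-type mouse 3 had the highest tendon and fibroblast sum too (978 TPM). Of the 6 macrophage markers 5 rose in injured mutants, of 5 tested neutrophil markers 4 rose, and of 5 endothelial markers 0 passed. Of the 6 tendon and fibroblast markers 2 rose and 3 fell there. The part of any of these cells in the result was not tested.

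Loxl2 (chromosome 14, 69609068 to 69695834, plus strand) crosslinks type IV and fibrillar collagens. It was at 119, 98.0, 158 and 121 TPM in intact mutants and 341, 151, 284, 228 and 233 TPM in injured mutants, where 4 of 5 injured values lay above all intact ones. Loxl2 rose by 0.96 ± 0.22 (SE) on the log2 scale (limma, adjusted p = 0.00432). Wild-type levels were 132, 165 and 111 TPM in intact and 159, 205, 240 and 208 TPM in injured discs, and the change of 0.58 ± 0.26 (SE) did not pass in limma (adjusted p = 0.249).

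Loxl4 (chromosome 19, 42593982 to 42612813, minus strand) is a further scavenger-receptor-domain member of the family. It was at 41.9, 38.2, 65.2 and 42.5 TPM in intact mutants and 101, 108, 110, 70.5 and 93.5 TPM in injured mutants, with no overlap. Loxl4 rose by 1.04 ± 0.27 (SE) on the log2 scale (limma, adjusted p = 0.00665). In wild-type discs its levels were 41.1, 64.5 and 36.7 TPM in intact mice and 45.5, 35.6, 74.3 and 81.6 TPM in injured mice. The wild-type groups were interleaved, and the change was 0.28 ± 0.30 (SE; limma, adjusted p = 0.624), or 0.10 without injured mouse 4, 0.14 without injured mouse 3, 0.12 without intact mouse 3, 0.49 without injured mouse 2 and 0.52 without intact mouse 2.

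Loxl3 (chromosome 6, 83034173 to 83052562, plus strand) was the oxidase that passed in neither genotype. It was at 103, 136 and 105 TPM in intact and 154, 157, 59.0 and 134 TPM in injured wild-type discs. In mutants it was at 75.8, 86.0, 152 and 143 TPM in intact and 99.8, 41.7, 98.8, 112 and 118 TPM in injured discs. The 2 lowest values of all 16 libraries were injured wild-type mouse 3 and injured mutant 2, the libraries with the most macrophage and least disc matrix marker RNA. The changes were 0.05 ± 0.42 (SE) in wild-type mice and -0.30 ± 0.37 in mutants (limma, adjusted p = 0.961 and 0.538). Loxl3 overlaps Htra2 on the opposite strand (median 21.5 TPM), and whether counting used strand is not given in the sources used here.

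The 3 prolyl 4-hydroxylase alpha subunits did not move together. Their promoters are shown because P4ha3 fell after injury in mutants while P4ha1 and P4ha2 did not pass the test, and that of Loxl4 because it rose. Each run is the 250 bases before the RefSeq transcript start on GRCm38.p6, 5′ to 3′ on the strand of the gene. Capitals mark the hypoxia response cores ACGTG and GCGTG and the GC box GGGCGG, on either strand.
P4ha1 (chr10:59323046-59323295, plus strand): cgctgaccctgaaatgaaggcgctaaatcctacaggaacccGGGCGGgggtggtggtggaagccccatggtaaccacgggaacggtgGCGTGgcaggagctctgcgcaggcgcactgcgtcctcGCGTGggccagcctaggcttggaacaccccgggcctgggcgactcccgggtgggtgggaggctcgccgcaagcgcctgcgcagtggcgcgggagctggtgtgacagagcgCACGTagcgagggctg
P4ha2 (chr11:54100674-54100923, plus strand): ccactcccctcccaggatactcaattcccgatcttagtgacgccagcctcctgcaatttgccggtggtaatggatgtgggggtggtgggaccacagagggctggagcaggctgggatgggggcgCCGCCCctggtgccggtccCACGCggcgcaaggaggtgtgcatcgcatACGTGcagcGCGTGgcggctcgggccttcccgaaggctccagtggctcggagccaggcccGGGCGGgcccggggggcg
P4ha3 (chr7:100285270-100285519, plus strand): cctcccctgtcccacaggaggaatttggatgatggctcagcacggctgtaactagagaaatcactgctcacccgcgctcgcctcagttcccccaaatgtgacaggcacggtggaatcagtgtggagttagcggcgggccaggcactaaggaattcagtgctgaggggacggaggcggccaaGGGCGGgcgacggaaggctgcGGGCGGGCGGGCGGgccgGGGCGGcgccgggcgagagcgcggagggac
Loxl4 (chr19:42612807-42613056, minus strand): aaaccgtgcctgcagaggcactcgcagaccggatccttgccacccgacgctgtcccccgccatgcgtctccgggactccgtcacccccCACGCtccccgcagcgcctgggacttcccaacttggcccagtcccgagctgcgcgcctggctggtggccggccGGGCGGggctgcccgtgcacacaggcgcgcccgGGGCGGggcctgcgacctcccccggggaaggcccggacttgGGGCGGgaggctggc

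P4ha1 and P4ha2 each held 3 hypoxia cores, Loxl4 held 1, and the P4ha3 window held none of these letters. P4ha3 instead held 5 GC boxes between 69 and 30 bases before the start, 3 of which overlap one another. P4ha1 held 1 GC box, P4ha2 held 2 and Loxl4 held 3. Of 32851 RefSeq mouse promoters cut to the same 250 bases, 38.6% held a hypoxia core and 32.7% a GC box. All 4 windows were richer in G and C (67.2% to 76.0%) than the median promoter (52.4%). RefSeq promoters were matched for 5 of the 10 genes, Plod1 being the other. The P4ha2 window, 54100674 to 54100923, lies inside the gene as annotated here, which begins at 54100095. Those of P4ha1 and P4ha3 end just before their genes, so the P4ha2 window is placed differently.

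P4ha3 (chromosome 7, 100285520 to 100319699, plus strand) encodes the third alpha subunit and was the only one of the 10 genes to pass the test with a lower level in any comparison. It was at 202, 257, 126 and 181 TPM in intact mutants and at 31.3, 73.7, 23.3, 132 and 63.0 TPM in injured mutants. Injured mutant 4 was above intact mutant 3, and the other injured mutants were below every intact one. P4ha3 fell by 1.76 ± 0.42 (SE) on the log2 scale (limma, adjusted p = 0.00406). In wild-type discs it was at 213, 217 and 248 TPM in intact and 166, 129, 112 and 113 TPM in injured mice. The wild-type groups did not overlap, but the change of -0.81 ± 0.47 (SE) did not pass in limma (adjusted p = 0.343).

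Levels of P4ha3 were low where markers of notochordal nucleus pulposus cells, the gel-forming cells of the disc core, were low. The sum of 6 such markers was 2523 to 4163 TPM in intact mutants and 31.4, 981, 213, 2426 and 1067 TPM in injured mutants 1 to 5. It was 3780 to 4886 TPM in intact and 1079 to 3854 TPM in injured wild-type discs. Injured mutants 1 and 3 had the lowest sums and the lowest P4ha3, and injured mutant 4 had the highest of both among injured mutants. Of the 6 markers, 4 passed the filter and 3 of these fell in mutants, while the defining markers Noto and Shh were below 1 TPM in every library. In bulk tissue fewer cells of a type and less RNA per cell cannot be told apart, and the part of these cells in the result was not tested.

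**Figure D2:**
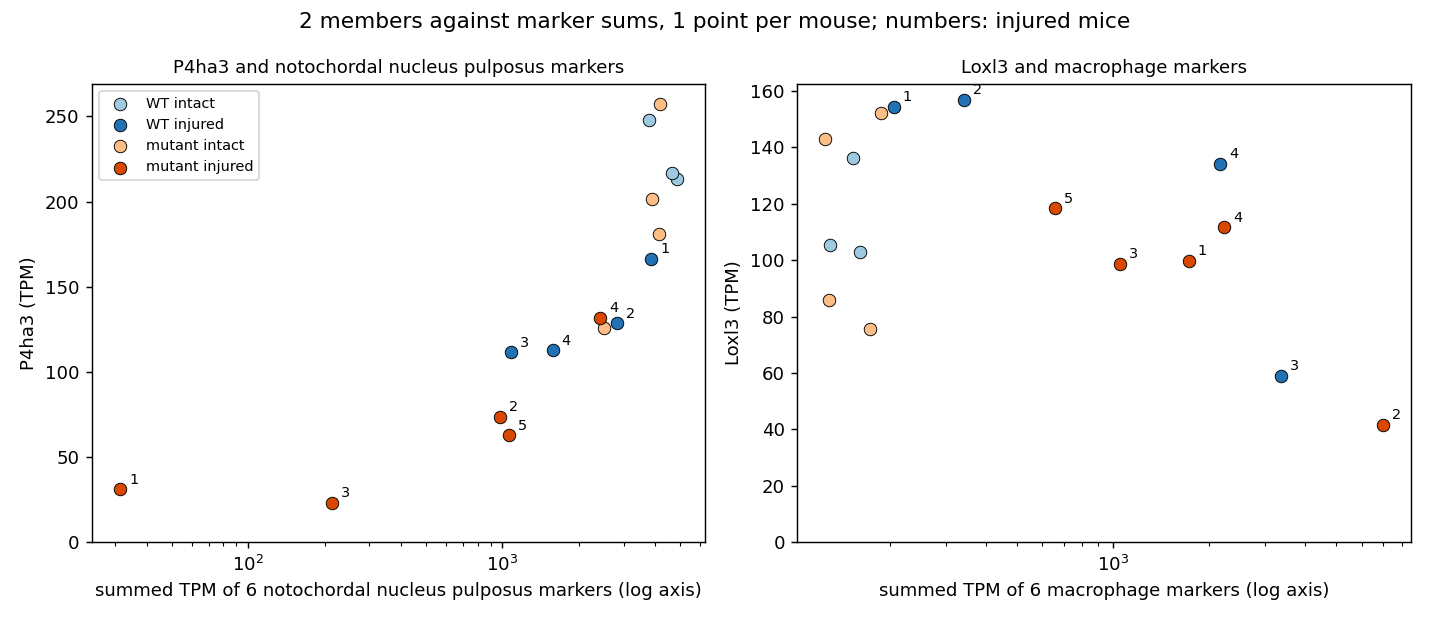
P4ha3 (TPM) against the summed TPM of 6 notochordal markers, and Loxl3 (TPM) against that of 6 macrophage markers, with the sums on log axes and 1 point per mouse coloured by group. Injured mutants 1 and 3 have the lowest notochordal sums and the lowest P4ha3, and the 2 libraries with the highest macrophage sums have the lowest Loxl3.

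P4ha1 (chromosome 10, 59323296 to 59373304, plus strand), the main alpha subunit of most tissues, was the steadiest of the 3. It was at 159, 152 and 182 TPM in intact and 135, 167, 147 and 204 TPM in injured wild-type discs. In mutants it was at 160, 171, 162 and 170 TPM in intact and 178, 132, 229, 188 and 191 TPM in injured discs. Its changes were -0.03 ± 0.17 (SE) and 0.13 ± 0.15 in limma (adjusted p = 0.951 and 0.523). P4ha2 (chromosome 11, 54100095 to 54131665, plus strand) was at 52.7 to 83.2 TPM in intact and 58.4 to 80.4 TPM in injured wild-type discs. It was at 64.9 to 91.4 TPM in intact mutants and spread from 48.3 to 142 TPM in injured mutants, with changes of -0.03 ± 0.32 (SE) and 0.30 ± 0.28 in limma (adjusted p = 0.967 and 0.409).

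The make-up of the alpha subunits therefore differed between groups. P4ha3 made up 49.1% ± 1.96 (SD, n = 3) of alpha subunit TPM in intact wild-type discs and 36.3% ± 7.38 (SD, n = 4) in injured ones. In mutants its share was 43.6% ± 7.93 (SD, n = 4) in intact and 18.7% ± 11.1 (SD, n = 5) in injured discs, where single mice ranged from 5.91% to 31.3%. P4ha1 took the largest mean share in injured discs of both genotypes. It was 45.2% ± 5.70 (SD, n = 4) in wild-type mice and 53.3% ± 7.38 (SD, n = 5) in mutants. Shares within a sum depend on each other and were not tested.

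**Figure D3:**
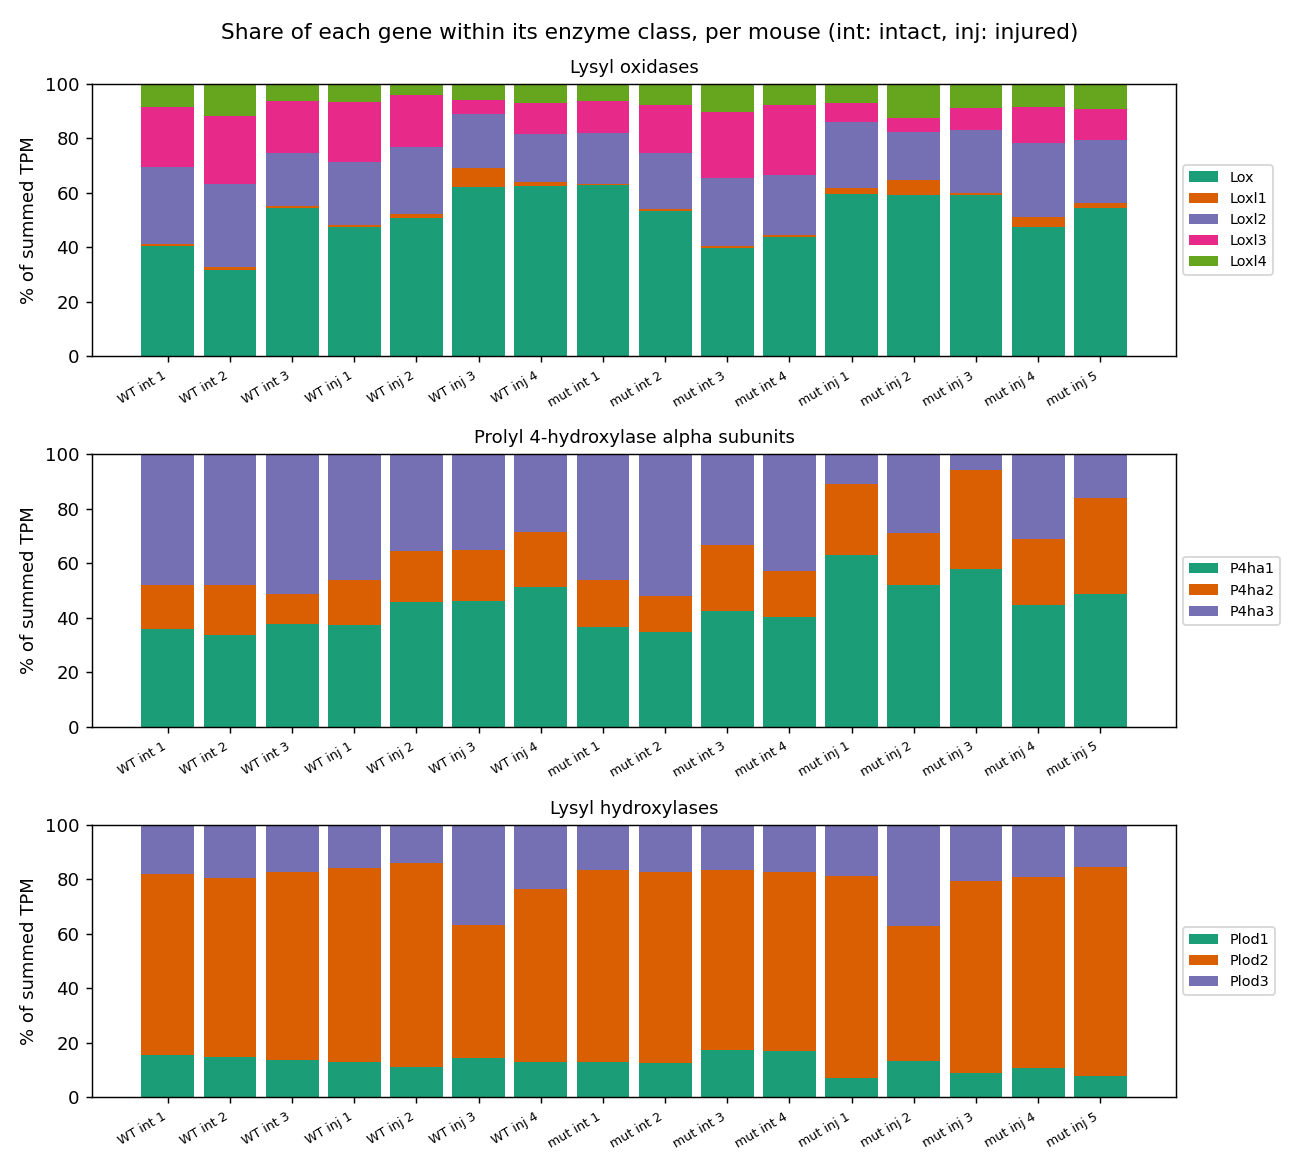
Share of each gene in the summed TPM of its enzyme class (percent), per library and group. P4ha3 averages 43.6% of alpha subunit RNA in intact mutants and 18.7% in injured mutants.

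Plod2 (chromosome 9, 92542223 to 92608428, plus strand) was at 295, 310 and 320 TPM in intact and 424, 584, 251 and 431 TPM in injured wild-type discs. In mutants it was at 371, 342, 356 and 338 TPM in intact and 755, 207, 665, 505 and 742 TPM in injured discs. All but 1 injured library of each genotype lay above the intact ones, and the exceptions were wild-type mouse 3 and mutant 2. The changes of 0.39 ± 0.40 (SE) and 0.57 ± 0.35 did not pass in limma (adjusted p = 0.588 and 0.192). Without injured mutant 2 the mutant change was 0.90 with an adjusted p of 0.00607 in limma, a setting in which 27.4% of all tested genes passed. Leaving out injured wild-type mouse 2 gave 0.22 for that genotype, and leaving out mouse 3 gave 0.62. Plod2 overlaps Gm38391 on the opposite strand (median 23.5 TPM). Plod1 (chromosome 4, 147909753 to 147936767, minus strand), which acts on helical lysines, was at 62.8 to 70.2 TPM in intact and 73.8 to 88.6 TPM in injured wild-type discs, without overlap. In mutants it was at 62.3 to 92.9 and 56.6 to 82.8 TPM. Neither change passed in limma, at 0.26 ± 0.15 (SE; adjusted p = 0.370) and -0.07 ± 0.13 (SE; adjusted p = 0.736).

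In injured mutants, then, 5 of the 10 genes passed at an adjusted p under 0.05, against 30.8% of the 24188 genes tested. Of these, 4 were higher, against 13.1% of all tested genes, and 1 was lower, against 17.7%. In injured wild-type mice 0 of the 10 passed in limma, where 0.116% of all tested genes did, 3 of the 10 (Lox, Loxl1 and Loxl2) had an unadjusted p under 0.05 (17.2% of all tested genes), and limma's voom on implied reads also called 0. Levels of intact and injured mice did not overlap for 3 of the 10 genes in wild-type mice (15.6% of all tested genes) and for 2 in mutants (27.2%). The median log2 change of the 10 was 0.27 in wild-type mice and 0.44 in mutants, beside 0.01 and -0.08 over all tested genes.

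The mutant libraries carry 2 kinds of names, A8 and M, and injured and intact mice occur under both. Under the M names alone, with 3 injured and 2 intact mice, the changes were 1.15 for Lox, 1.76 for Loxl1, 0.83 for Loxl2, 0.76 for Loxl4 and -1.36 for P4ha3, and 0 of the 10 passed in limma (adjusted p from 0.0585 to 0.246 for these 5), where 725 of all 24188 tested genes did. Under the A8 names, with 2 and 2 mice, they were 1.01, 3.12, 1.06, 1.37 and -2.22, and Loxl4 and P4ha3 passed in limma (adjusted p = 0.0415 and 0.0154), as did 3583 of all 24188 (14.8%). The direction of all 5 was the same within both names.

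**Figure D4:**
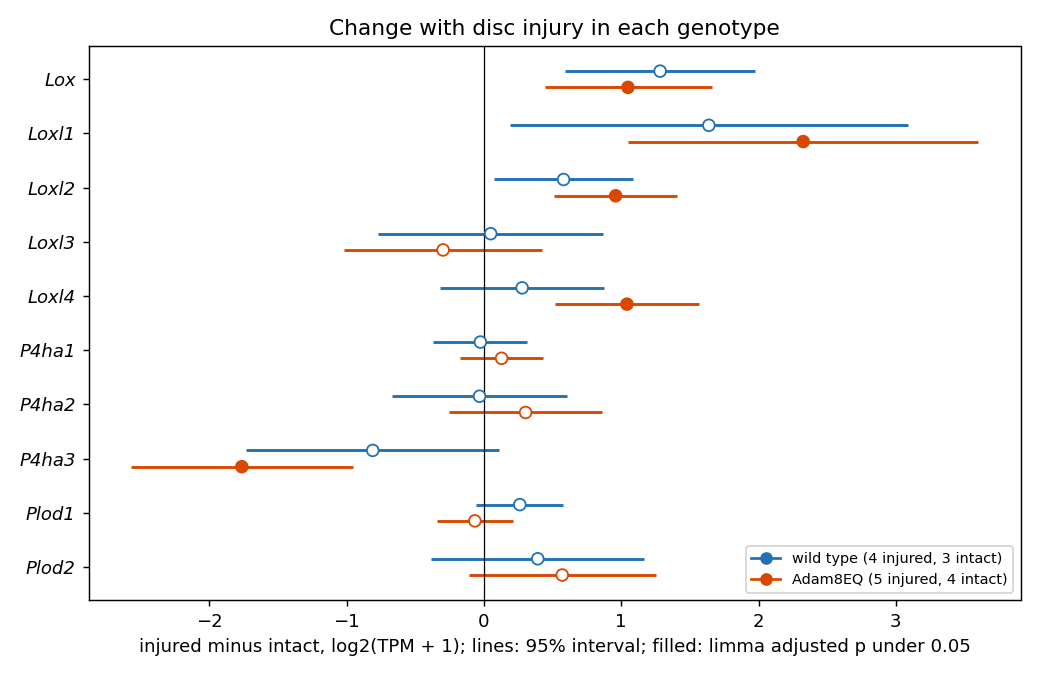
Fitted change of each gene after injury (injured minus intact, log2(TPM + 1), lines showing the 95% interval and filled points a limma adjusted p under 0.05) in wild-type mice and in mutants. In mutants Lox, Loxl1, Loxl2 and Loxl4 lie above 0 and P4ha3 below it.

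Comparing genotypes, 0 of the 10 genes passed in intact discs in limma (0.0165% of all tested genes) and 0 had an unadjusted p under 0.05 (3.78%). The smallest p was that of Lox, with a mutant minus wild-type difference of 0.39 ± 0.35 (SE; limma, adjusted p = 1). Plod2 levels did not overlap, at 338 to 371 TPM in mutants and 295 to 320 TPM in wild-type mice, as was so in this direction for 2.77% of all tested genes. In injured discs 0 of 10 passed in limma (0.918% of all tested genes), and 2 had an unadjusted p under 0.05, as did 20.3% of all tested genes. These were Loxl4, with a difference of 0.76 ± 0.27 (SE; limma, adjusted p = 0.117), and P4ha3, with -1.23 ± 0.42 (SE; limma, adjusted p = 0.103). The other 8 lay between -0.41 and 0.49. Levels of the 2 genotypes overlapped for all 10 genes in injured discs, and did not for 4.77% of all tested genes. The test of whether injury acted differently in the 2 genotypes called 0 of the 10, as it did 0 of all tested genes in limma, and 0 of the 10 had an unadjusted p under 0.05 (8.18% of all tested genes). Its smallest p was that of Loxl4, at 0.76 ± 0.41 (SE; limma, adjusted p = 0.626). A larger response in mutants is therefore not shown for any of the 10.

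Set against the RNA of their substrate, 2 of the 5 oxidases, Loxl2 and Loxl4, and the sum of all 5 had lower ratios after injury in wild-type mice and higher ratios in mutants. The summed TPM of 9 fibrillar collagen genes was 3811 ± 534 (SD, n = 3) in intact and 9564 ± 3302 (SD, n = 4) in injured wild-type discs, and 4854 ± 608 (SD, n = 4) and 5878 ± 1184 (SD, n = 5) in mutants. Per 1000 TPM of collagen, lysyl oxidases stood at 123 to 153 TPM in intact and 87.2 to 118 TPM in injured wild-type discs, and at 103 to 138 TPM in intact and 154 to 225 TPM in injured mutant discs. Loxl2 was at 30.1 to 39.3 in intact and 15.4 to 29.1 in injured wild-type discs, and at 22.6 to 29.9 and 31.6 to 51.9 in mutants. Loxl4 was at 9.99 to 14.7 and 5.05 to 6.87 in wild-type mice, and 7.91 to 12.3 and 12.8 to 22.6 in mutants. None of these 6 pairs of ranges overlapped. In wild-type mice, where the collagen sum itself was higher after injury, 59.9% of all tested genes were lower per collagen without overlap, so a lower ratio there was common. In mutants 5.91% of all tested genes were higher without overlap, and 0.802% were lower in wild-type mice and higher in mutants. The other 3 oxidases did not follow this pattern. The mean log2 change per collagen was 0.02 in wild-type mice and 0.79 in mutants for Lox, 0.51 and 2.31 for Loxl1, and -1.22 and -0.57 for Loxl3. Without Col2a1 in the sum, 1 of the 6 pairs (Loxl4 in wild-type mice) did not overlap, and the mean changes kept their directions. The alpha subunits per 1000 TPM of collagen were lower in injured wild-type discs (28.7 to 54.3) than in intact ones (103 to 132), while the mutant ranges overlapped.

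**Figure D5:**
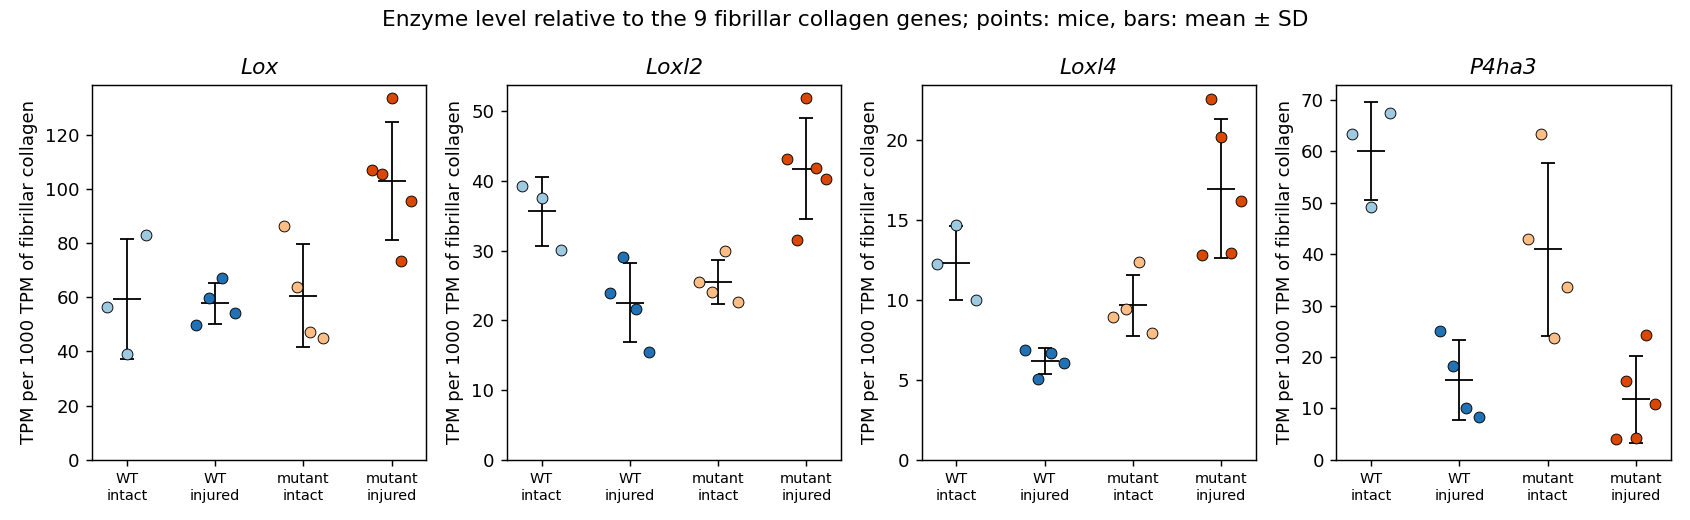
TPM of Lox, Loxl2, Loxl4 and P4ha3 per 1000 TPM of 9 fibrillar collagen genes, per mouse (points) and group, with bars for mean ± SD. Loxl4 lies at 5.05 to 6.87 in injured wild-type discs and at 12.8 to 22.6 in injured mutant discs. The collagen sum in the ratio averaged 9564 TPM in injured wild-type and 5878 TPM in injured mutant discs. Loxl4 TPM itself overlapped between these 2 groups.

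Genes that work with these enzymes were read from 5 lists, whose counts stand beside 13.1% higher and 17.7% lower among all tested genes in injured mutants. Of 14 procollagen modification and folding partners, 1 rose and 4 fell in injured mutants (median log2 change 0.09). Plod3, which also glycosylates hydroxylysine, rose by 0.90 ± 0.18 (SE; limma, adjusted p = 0.0021), and Crtap, part of the prolyl 3-hydroxylation complex, fell by 0.80 ± 0.11 (SE; limma, adjusted p = 0.000629). P4hb had a change of 0.25 ± 0.11 (SE; limma, adjusted p = 0.146). Of 8 propeptide processing genes 6 were tested and 2 fell, the larger fall being that of Adamts2, the procollagen N-proteinase, at -0.77 ± 0.29 (SE; limma, adjusted p = 0.0423). Of 10 substrates, Col3a1 (2.15 ± 0.75, SE; limma, adjusted p = 0.027) and Col5a2 rose, and elastin, Eln, fell by 1.59 ± 0.44 (SE; limma, adjusted p = 0.0095).

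Of 8 lysyl oxidase partners and copper supply genes, 4 rose and 3 fell in injured mutants. Postn, a matricellular protein that aids Lox activation, rose most, by 3.80 ± 1.02 (SE; limma, adjusted p = 0.00775). Fn1, Efemp2 and the copper importer Slc31a1 also rose. Ltbp4 fell by 1.76 ± 0.29 (SE; limma, adjusted p = 0.000705), and Fmod and Fbln5, an elastic fibre protein, fell too. Of 16 hypoxia response genes 1 rose and 4 fell, with a median log2 change of -0.39, beside -0.08 over all tested genes. Hif1a rose by 0.65 ± 0.14 (SE; limma, adjusted p = 0.00465), and Epas1 fell by 0.73 ± 0.23 (SE; limma, adjusted p = 0.019). In injured wild-type mice 0 genes of these 5 lists passed in limma, where 0.116% of all tested genes did. The median log2 changes of the lists there were 0.17, 0.51, 0.82, 0.31 and -0.42, in the order above. Plod3, Col3a1, Postn and Hif1a had wild-type changes of 0.66, 2.79, 3.59 and 0.60. Those of Crtap, Adamts2, Eln, Ltbp4 and Epas1 were -0.14, -0.02, -0.70, -0.45 and -0.13. The test of whether injury acted differently in the 2 genotypes called 0 of all tested genes. Between genotypes in injured discs Crtap alone of the 5 lists passed, at -0.61 ± 0.11 (SE; limma, adjusted p = 0.0337). The lists held 14, 6, 10, 8 and 16 tested genes, and 0.918% of all tested genes passed in that comparison.

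Across the 16 libraries, deviations from the group means on the log2 scale gave the genes most like 3 of the enzymes. For Lox these were Uhrf1bp1l (Pearson r = 0.92), Mex3c (0.90) and Crk (0.90). For P4ha1 they were Mirlet7c-1 (0.91), Rep15 (0.89) and Pura (0.89), and for Plod2 Adgrg2 (0.98), Acat2 (0.95) and Adk (0.95). They are the top of 11861 genes compared, so high values were picked. Among the 10 enzymes themselves, Loxl3 went with Plod1 (r = 0.81) and Plod2 (0.78), and Loxl2 ran against P4ha3 (-0.67). All these genes were measured in the same libraries, which differ in depth and tissue composition, and the values are descriptions.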

How the data were processed

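Bulk RNA sequencing covered 16 mice. Per the labels' protocols, RNA was extracted with Trizol, depleted of ribosomal RNA and made into NEBNext Ultra II libraries, while the molecule field reads polyA RNA. The authors deposited 1 table of TPM values, each column summing to 1000000. The submitters' processing notes name GRCm38 and bcl2fastq 2.20. The aligner, counter, strand setting and annotation are not given in the sources used here.

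Genes reaching 1 TPM in 3 or more libraries (24188 of 49315) were fitted on log2(TPM + 1) with limma 3.58.1 in R 4.3.3, all 16 libraries in 1 model with a mean per group and a trended variance. P-values were Benjamini-Hochberg adjusted over all tested genes, with a threshold of 0.05. Fold changes on this scale understate those of low genes. Coordinates are from GENCODE M21, which held 48970 of the gene identifiers. Reads implied by TPM times exon length came out within 0.05 of a whole number for 94.1% to 95.0% of values under 20 reads, and served an added voom fit scaled by library totals or by a trimmed mean. On simulated data for injury in mutants, 78% of 200 genes changed by 2 on the log2 scale were recovered among 24188, with 9 false calls.

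The 10 genes and all gene lists were chosen with earlier results of these data known. All 10 are named with their injury changes. In the other comparisons those with an unadjusted p under 0.05 are named, or else the smallest p, and each list gives its largest rise and fall past the threshold. For likeness, the 3 top genes were taken among those averaging 5 TPM or more. Same-numbered mice are different animals: deviations of same-numbered libraries correlated at -0.22 to 0.15 (21 pairs) and those of other pairs at -0.31 to 0.30. Alternatives were the pseudocount, filters, scaling, the replicate block, library names and leaving out each mouse.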

Additional observations from a re-analysis of the deposited data

Results flagged for a closer look

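Of 30 combinations of a gene and a group of 4 or 5 mice, 4 held a library far from the others, where chance gives about 1 in 20. Lox was high in intact mutant 1 (406 TPM) and Loxl1 was high in intact mutant 3 (5.47 TPM). Loxl3 was low in injured wild-type mouse 3 (59.0 TPM) and in injured mutant 2 (41.7 TPM), the libraries with the highest macrophage marker sums.

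Ratios to fibrillar collagen RNA were taken for 13 items, the 10 genes and 3 class sums. Of these, 3 moved in opposite directions after injury in the 2 genotypes, with no overlap between intact and injured mice in either. They are not separate results, because the lysyl oxidase sum contains Loxl2 and Loxl4. The mean log2 change was -0.41 in wild-type mice and 0.60 in mutants for summed lysyl oxidases, -0.69 and 0.70 for Loxl2, and -0.99 and 0.79 for Loxl4. Of all tested genes, each taken singly, 0.802% showed this pattern and 59.9% were lower per collagen in wild-type mice. The difference between genotypes was not tested.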

How the results depend on the processing

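Among mutants, the number of the 10 genes called after injury went from 5 to 0 with the M names alone and to 2 with the A8 names alone, which leave fewer mice, and ranged from 5 to 6 when each mouse was left out. Calls among all 24188 genes moved too, from 7438 to 725 and 3583. In wild-type mice 0 to 1 of the 10 were called on leaving out each mouse, beside 0.00827% to 1.87% of all tested genes. Between genotypes in injured discs 1 was called with the M names alone (P4ha2, 0.92; limma, adjusted p = 0.0463; 264 in all), and 0 to 1 on leaving out a mouse: without injured wild-type mouse 3 Loxl4 passed (0.89; limma, adjusted p = 0.0482; 2253 genes called in all, against 222 with every mouse), and without injured mutant 4 P4ha3 passed (-1.55; limma, adjusted p = 0.0325; 597 in all). No other alternative changed these counts by more than 1.5 times, voom included. The replicate block left the calls at 5 in mutants and 0 in the other comparisons; the numbers do not pair the mice. Signs turned only for changes that did not pass. In wild-type mice Loxl3 was -0.063 with the replicate block and ranged from -0.088 to 0.38 on leaving out a mouse, P4ha1 from -0.14 to 0.058 and P4ha2 from -0.21 to 0.12. In mutants, A8 names alone gave -0.11 for P4ha1 and -0.24 for P4ha2. Plod1 in mutants was 0.023 with median-of-ratios scaling, 0.00030 in voom with trimmed-mean scaling and -0.16 to 0.026 on leaving out a mouse. The cause was not tested. The voom fits and the other collagen denominators were chosen after seeing the data. The few intact Loxl1 reads (30.9 to 60.9 implied) limit its precision.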
